A study of Mus musculus with 16 samples.

Results

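The comparison was between FOXD3-depleted and control mouse embryonic stem cells of the sorted fraction named LS, measured by ATAC-seq, a method in which a transposase cuts open chromatin and tags it for sequencing. The cells carried the genotype FOXD3-iKO and were kept in L2i medium. One group had received tamoxifen (4HT), which induces loss of FOXD3, and the other ethanol (EtOH), both for 24 h. The labels name no clone, no driver of the deletion and no residual FOXD3 level. Cells were sorted by their DNA content into G1, ES, LS and G2, and the meaning of ES and LS is not given. The 4HT LS group had 2 libraries and the EtOH LS group 2 libraries, 4 of the 16 in the series. The authors gave each group 1 column of pooled signal, so the comparison used 2 of 8 columns. All rows were compared, which were 127646 accessible regions and 38053 distinct windows that span 5000 bp at a transcription start site (TSS). Of these windows, 26653 could be given a gene name.

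FOXD3 belongs to the forkhead family and acts in pluripotent cells and in the neural crest. It binds nucleosomal DNA and has been described both as an opener of enhancers and as a recruiter of repressors. In S phase the chromatin of each replicated stretch is rebuilt behind the fork, so transcription factors have to find their sites again on new chromatin.

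The deposited signal was coverage scaled to library size and averaged over the bases that held a read. Its smallest value in a column is therefore the worth of 1 read, and each level below is given as a multiple of that 1-read value. That value was 0.0903 in 4HT LS and 0.122 in EtOH LS, which corresponds to depths of 11.1 and 8.17 M reads. The 4HT column was thus 1.36 times as deep. An equal signal gives a multiple that is higher by this ratio in 4HT LS. The log2 differences below were taken on the signal and centred. Centring removes any average difference between the columns, whatever its source. A shift of most rows alike after the loss of FOXD3 would thus be removed together with one from depth. Single weak rows can still carry depth, because the lowest possible signal differs between the 2 columns. The 6 columns of the other fractions had 6.78 to 11.2 M reads. The windows of 9 embryonic stem cell markers had a median of 1.83 times the 1-read value in 4HT LS and 1.79 times in EtOH LS, against 1.36 and 1.25 over all named windows. The median was 1.18 and 1.25 for 8 fibroblast markers, 1.13 and 1.03 for 5 primitive endoderm markers, and 1.40 and 1.303 for 4 trophectoderm markers. The embryonic stem cell markers stood highest in both columns, as the label says. No marker window was without a read in either column.

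Promoter sequences of 4 genes among the 20 windows with the widest LS differences, none of them called, and of Foxd3 itself, are shown here as examples from RefSeq (GRCm38.p6, the assembly also named mm10), from 250 bases before to 50 bases after the start. Rnf126 and Cetn3 had more signal in 4HT LS, and Rmnd5a and Mylip had less. Capitals mark the forkhead core TGTTT or its reverse complement AAACA.
Rnf126, chr10:79766903-79767202, minus strand: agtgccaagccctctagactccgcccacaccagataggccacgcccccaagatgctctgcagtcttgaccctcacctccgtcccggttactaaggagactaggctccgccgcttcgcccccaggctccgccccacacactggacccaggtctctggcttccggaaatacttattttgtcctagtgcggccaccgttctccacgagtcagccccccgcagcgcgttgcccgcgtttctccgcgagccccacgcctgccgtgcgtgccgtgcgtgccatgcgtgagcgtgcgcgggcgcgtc
Cetn3, chr13:81782997-81783296, plus strand: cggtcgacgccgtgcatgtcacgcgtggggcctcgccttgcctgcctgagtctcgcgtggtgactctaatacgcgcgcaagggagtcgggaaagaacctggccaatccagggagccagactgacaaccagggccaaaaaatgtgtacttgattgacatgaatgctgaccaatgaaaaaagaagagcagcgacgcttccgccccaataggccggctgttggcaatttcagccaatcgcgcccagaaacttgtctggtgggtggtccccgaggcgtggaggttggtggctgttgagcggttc
Rmnd5a, chr6:71440588-71440887, minus strand: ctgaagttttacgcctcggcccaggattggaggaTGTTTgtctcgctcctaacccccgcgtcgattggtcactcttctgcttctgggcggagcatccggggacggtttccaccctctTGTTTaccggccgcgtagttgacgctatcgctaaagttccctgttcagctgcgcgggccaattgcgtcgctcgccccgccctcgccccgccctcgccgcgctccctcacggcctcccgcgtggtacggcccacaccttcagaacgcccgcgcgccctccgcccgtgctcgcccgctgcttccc
Mylip, chr13:45389492-45389791, plus strand: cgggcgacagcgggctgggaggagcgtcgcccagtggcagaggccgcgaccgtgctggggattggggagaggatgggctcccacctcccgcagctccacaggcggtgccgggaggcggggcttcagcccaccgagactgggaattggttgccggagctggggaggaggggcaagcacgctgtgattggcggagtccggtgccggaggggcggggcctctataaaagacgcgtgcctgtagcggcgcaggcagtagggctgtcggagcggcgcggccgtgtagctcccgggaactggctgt
Foxd3, chr4:99656049-99656348, plus strand: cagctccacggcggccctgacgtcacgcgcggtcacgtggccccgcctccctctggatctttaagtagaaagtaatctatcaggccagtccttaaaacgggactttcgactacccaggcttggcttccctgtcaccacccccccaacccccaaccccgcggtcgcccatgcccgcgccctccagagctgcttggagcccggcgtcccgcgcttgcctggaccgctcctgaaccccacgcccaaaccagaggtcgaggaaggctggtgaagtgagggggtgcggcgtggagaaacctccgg
Of these 5 promoters, that of Rmnd5a alone held the core, at 2 places. One of the 2 is part of the longer forkhead motif TGTTTAC.

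At the Foxd3 gene itself, the TSS window (chr4:99653650-99658649) had 1.56 times the 1-read value in 4HT LS and 1.27 times in EtOH LS. In units of signal these were 0.141 and 0.155. The centred log2 difference was 0.08 with a standard error (SE) of 0.17 (limma adjusted p = 0.992). The window signal reads the promoter and not the product, so it does not check the depletion. A region 14128 bp from Foxd3 (chr4:99670116-99670739), chosen after its value was seen, had 5.05 times the 1-read value in 4HT LS and 2.06 times in EtOH LS. Its log2 difference was 0.75 (SE 0.43, limma adjusted p = 0.933). That difference was 0.95 in G1, 0.47 in ES and 0.14 in G2, higher in 4HT in each fraction. The regions in the TSS window or just outside it had too little coverage to be tested and went both ways. Their log2 ratios of 4HT LS to EtOH LS signal, not centred, ran from -0.41 to 0.51.

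No region and no window differed between 4HT LS and EtOH LS at an adjusted p under 0.05. The test was limma on 11010 regions and 15323 windows that had a read in every column and enough coverage, with the LS pair assumed to vary like the pairs of G1, ES and G2. It called 0 regions (0%), with 603 at an unadjusted p under 0.05, where 550.5 would be so by chance. It called 0 windows (0%), with 888 at an unadjusted p under 0.05 and 766 by chance. The smallest adjusted p was 0.0876 among regions and 0.0748 among windows. The test of the LS difference against the mean difference of the other fractions also called 0 regions (0%; 570 at an unadjusted p under 0.05) and 0 windows (0%; 888). The median SE of a log2 difference was 0.43 for regions and 0.17 for windows, which limits what could be detected.

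The size of the LS differences was also that of other column pairs. Fold counts here and below, unless stated, are by the centred log2 difference, taken after 0.1 was added to the signal. This understates the folds of weak rows. Of the regions tested, 197 (1.79%) had at least 2-fold more signal in 4HT LS and 241 (2.19%) at least 2-fold less, 438 in all (3.98%). Without centring the split was 156 and 326. In the other fractions the totals were 435 in G1, 349 in ES and 360 in G2. Of the windows tested, 28 (0.183%) had at least 1.5-fold more signal in 4HT LS and 52 (0.339%) at least 1.5-fold less, 80 in all (0.522%), against 87 in G1, 61 in ES and 57 in G2. Without centring, when the median of all windows was -0.17, that split was 4 and 274. The source of this shift was not tested. The SD of the log2 difference over regions was 0.472 between 4HT LS and EtOH LS. The 12 pairs of columns that share a treatment and differ in fraction had SDs of 0.467 to 0.5004. Among all 28 pairs, ranked from the widest, the LS treatment pair stood at place 20 for regions and 18 for windows. Most of these pairs differ in fraction. The treatment pairs of G1, ES and G2 had SDs of 0.476, 0.455 and 0.457 over regions. Over windows they had 0.191, 0.179 and 0.180, against 0.188 in LS. Only the G1 pair was wider than that of LS. EtOH G2, which is nearly as deep as 4HT LS, gave 444 regions past 2-fold against the same EtOH LS column. These 2 EtOH columns differ in fraction. Over all pairs that share a treatment and differ in fraction, the counts ran from 403 to 536. No pair of columns shares both fraction and treatment, so the part of treatment in the LS count was not tested apart.

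**Figure D1:**
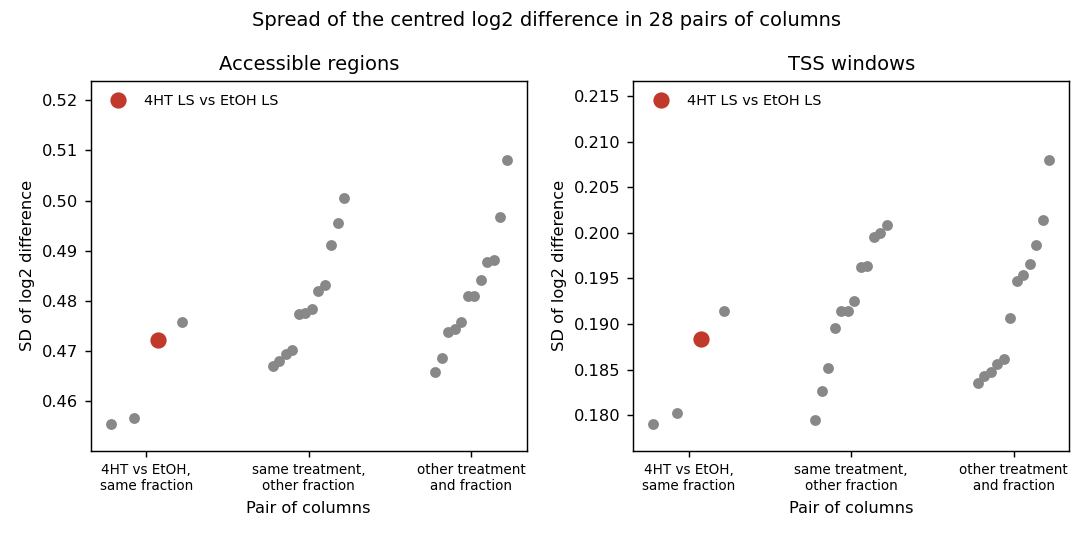
SD of the centred log2 difference over 11010 regions (left) and 15323 TSS windows (right), 1 point for each of the 28 pairs of columns, sorted within each kind of pair. The pair of 4HT LS and EtOH LS (red) lies among the other pairs, at 0.472 for regions and 0.188 for windows.

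The direction of large LS differences was the same in another fraction in about as many cases as not. Of the 197 regions with at least 2-fold more signal in 4HT LS, 28 were higher in 4HT in all 3 other fractions, and of the 241 with less signal, 27 were lower in all 3. The same share over all regions tested was not taken, so these 2 counts alone show no excess or shortfall. Over the 3 other fractions, 50.4% of the cases had the same sign for the regions with more signal and 50.5% for those with less. Of the 197 regions with more signal, 23 (11.7%) were also past 2-fold higher in at least 1 other fraction, against 5.49% of all regions tested. Of the 241 with less signal, 19 (7.88%) were also past 2-fold lower in another fraction, against 4.67% of all. These shares are above those of all regions, and no test was made of them. Of the windows past 1.5-fold in LS, 0 were past 1.5-fold in the same direction in another fraction, against 0.672% (higher) and 0.633% (lower) of all windows tested. With only 28 windows higher and 52 lower in LS, shares this small leave hardly any window to expect, so the 0 cannot show a shortfall. Across all 11010 regions, which are not independent, Pearson's r between the LS difference and that of another fraction was 0.023 for G1, 0.0044 for ES and 0.011 for G2. For the 15323 windows it was 0.0077, 0.0092 and -0.019.

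Weak regions were often read in 1 LS column and not in the other. In LS, 79038 regions (61.9%) were read in both columns, 23193 (18.2%) in 4HT only, 13717 (10.7%) in EtOH only and 11698 (9.16%) in neither. There were thus 1.69 times as many regions read in 4HT only as in EtOH only. The deeper column had more such regions in every fraction, with 14215 in 4HT only and 27358 in EtOH only in G1, 21149 and 16735 in ES, and 14360 and 21830 in G2. EtOH G2 against EtOH LS, at nearly the same depths as the LS treatment pair, gave 22989 regions read in EtOH G2 only and 14131 in EtOH LS only. When 4HT LS was set against EtOH G2, a column of nearly its own depth, 16733 regions were read in 4HT LS only and 16115 in EtOH G2 only. These pairs differ in fraction as well, and the parts of depth and treatment in the LS counts were not tested apart.

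**Figure D2:**
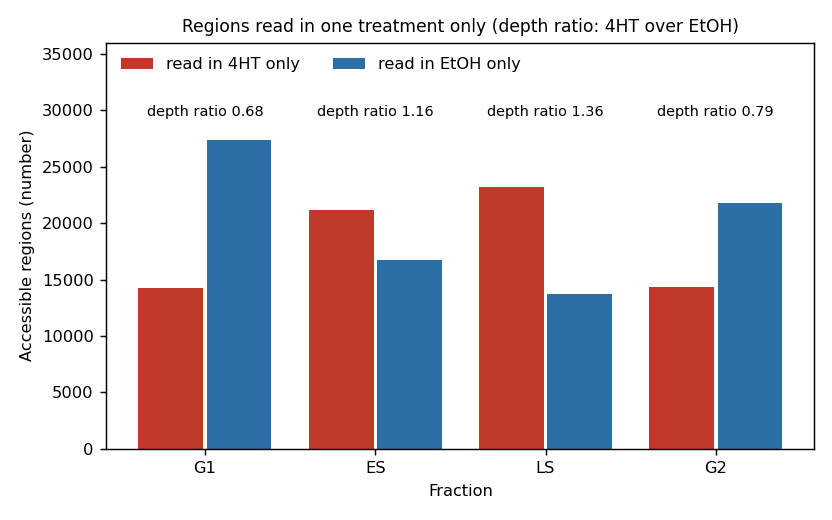
Number of regions read in the 4HT column only (red) and in the EtOH column only (blue) in each fraction, with the depth of the 4HT column over that of the EtOH column written above. In LS, 23193 regions were read in 4HT only and 13717 in EtOH only, and in each fraction the taller bar belongs to the deeper column.

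Promoters were seldom among the regions read in 1 column. Of 17756 regions within 1000 bp of a TSS, 9.13% were read in 4HT LS only and 4.98% in EtOH LS only. In gene bodies the shares were 19.5% and 11.6%, and between genes 19.9% and 11.8%. Of 44250 regions that all 6 columns of the other fractions held, 3200 (7.23%) were read in 4HT LS only and 1660 (3.75%) in EtOH LS only. Over all regions these shares were 18.2% and 10.7%. Over all regions read in 1 LS column only, few had much signal, with 224 at 3 or more times the 1-read value in 4HT LS only and 45 in EtOH LS only.

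The strongest region read in 4HT LS only lay within Pacs2, at 36370 bp from the start of Mta1 (chr12:113061853-113061964), at 5.60 times the 1-read value. The next were chr12:43211582-43211722 at 5.49, a region 18371 bp from Purb (chr11:6494371-6494524) at 5.40, a region 2990 bp from Rps6ka5 (chr12:100728055-100728166) at 5.38, and chr10:17576321-17576492 at 5.10. The strongest read in EtOH LS only lay within Hibch (chr1:52918632-52918748), at 5.73 times the 1-read value, and within Smco2 (chr6:146854904-146855016), at 4.69. All these were narrow, at 112 to 172 bp. The other 3 of that direction were a region 87015 bp from Ercc5 (chr1:44234664-44234854) at 3.97, chr12:86800962-86801110 at 3.95, and a region within Rps23rg1 (chr8:3574505-3574673) at 3.899. Mta1 codes for a subunit of the NuRD corepressor, Purb for a DNA-binding protein, and Ercc5 for a nuclease of DNA repair.

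Few windows were read in 1 LS column only. Of 38053 windows, 387 (1.02%) were read in 4HT LS only and 235 (0.618%) in EtOH LS only. The highest in 4HT LS only was a window on chromosome 4 (chr4:88785328-88790327) at 2.75 times the 1-read value, which had no read in EtOH G1 and EtOH ES either. The others in that direction were chr10:22400234-22405233 at 2.36, chr14:7192191-7197190 at 1.96, and a pair of overlapping windows on chromosome X (chrX:33423655-33428654 and chrX:33425927-33430926) at 1.91 each. The highest in EtOH LS only was chr4:145822588-145827587 at 2.18, followed by the 5S ribosomal RNA gene n-R5s124 (chr8:123577219-123582218) at 1.94, chr7:7927613-7932612 at 1.87, chr11:3194475-3199474 at 1.80 and the small nucleolar RNA gene Snord116l5 (chr7:59884801-59889800) at 1.80.

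Among windows with more signal in 4HT LS, the widest difference was on chromosome 9 (chr9:64039116-64044115), at 4.02 times the 1-read value in 4HT LS and 1.40 times in EtOH LS. Its log2 difference was 0.93 (SE 0.21, limma adjusted p = 0.0988), and the other 6 columns stood between 1.17 and 2.41. Rnf126 (chr10:79764603-79769602), an E3 ubiquitin ligase, followed with 4.33 in 4HT LS and 1.62 in EtOH LS, a log2 difference of 0.90 (SE 0.22, limma adjusted p = 0.207). The 4HT LS value lay above, and the EtOH LS value below, the range of the other 6 columns, 1.95 to 2.91. A window shared by Zfp91, another E3 ligase, and Lpxn, a focal adhesion adaptor (chr19:12793777-12798776), had 4.44 in 4HT LS and 1.82 in EtOH LS. Their starts lie so close that the window cannot be given to either gene.

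Cox6b2 (chr7:4750745-4755744), a testis form of a cytochrome c oxidase subunit, had 4.83 times the 1-read value in 4HT LS and 2.08 times in EtOH LS, a log2 difference of 0.78. Cetn3 (chr13:81780643-81785642), a centrin of the centrosome, had 4.99 and 2.21 (0.75), and its other columns stood at 1.85 to 2.97. Usp36 (chr11:118287895-118292894), a deubiquitinase of the nucleolus, had 4.28 in 4HT LS and 1.96 in EtOH LS (0.68). In multiples, the 4HT LS column was the highest of the 8 in all 3 windows. By signal Cox6b2 had 0.436 in 4HT LS and up to 0.4399 in the other fractions. Zfp318 (chr17:46381082-46386081), a zinc finger protein, had 3.42 in 4HT LS and 1.57 in EtOH LS (0.65). Nid2 (chr14:19748608-19753607), a nidogen of basement membranes, had 2.90 and 1.29 (0.65). The remaining 2 were windows on chromosome 8 (chr8:20547682-20552681), with 6.32 and 3.06, and on chromosome 5 (chr5:113161002-113166001), with 4.35 and 2.16. The 4HT LS column was the highest of all 8 in 9 of these 10 windows by multiples, which are higher in a deeper column, and in 8 by signal. The windows were chosen by their LS difference, so such places follow in part from the choice and are no separate result.

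Among windows with less signal in 4HT LS, the first lay in the large histone cluster on chromosome 13 (chr13:23680303-23685302). It had 1.75 times the 1-read value in 4HT LS and 3.89 times in EtOH LS, a log2 difference of -0.99 (SE 0.20, limma adjusted p = 0.0748). The other 6 columns stood at 1.28 to 2.10, so 4HT LS was within their range and EtOH LS above it. The windows of H2bc4 and H2ac6, a divergent pair of replication-dependent histone genes, overlap it and had 1.75 in 4HT LS and 3.63 in EtOH LS, with log2 differences of -0.92 each (limma adjusted p = 0.0863). The region between the 2 genes (chr13:23683866-23684296) had 4.55 in 4HT LS and 8.93 in EtOH LS. The nearest other histone window tested, that of H4c3, had 1.74 in 4HT LS and 1.60 in EtOH LS, a log2 difference of -0.04.

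Fnta (chr8:26013252-26018251), the alpha subunit of protein farnesyltransferase, had 1.19 times the 1-read value in 4HT LS and 2.92 times in EtOH LS. Its log2 difference was -0.98 (SE 0.20, limma adjusted p = 0.0863). Set against the mean of the other fractions, the difference was -1.13 (SE 0.24, limma adjusted p = 0.153), with 0.06 in G1, -0.19 in ES and 0.59 in G2. The 4HT LS value was the lowest of the 8 columns and the EtOH LS value the highest. The region at the Fnta start (chr8:26015035-26015948) had 1.51 in 4HT LS and 4.79 in EtOH LS.

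Rmnd5a (chr6:71438288-71443287), a subunit of the CTLH ubiquitin ligase, had 2.65 times the 1-read value in 4HT LS and 4.38 times in EtOH LS, a log2 difference of -0.72. Mylip (chr13:45387093-45392092), the ligase that marks the LDL receptor for degradation, had 1.46 and 2.63 (-0.70). Ahr (chr12:35532689-35537688), the ligand-activated aryl hydrocarbon receptor, had 1.73 in 4HT LS and 2.99 in EtOH LS (-0.70). For Ahr the other 6 columns stood at 1.44 to 1.82, so that EtOH LS alone stood apart. In multiples the same held for Vps39 (chr2:120350788-120355787), a subunit of the HOPS complex of lysosomal fusion, with 1.46 in 4HT LS, 2.62 in EtOH LS and 1.38 to 1.71 in the others. Tarsl2 (chr7:65642249-65647248), a threonyl-tRNA synthetase, had 1.70 in 4HT LS and 3.04 in EtOH LS (-0.73). Wdfy2 with Mir8098 (chr14:62835041-62840040), an endosomal protein and a microRNA, had 2.51 and 4.18 (-0.72), and the pseudogene Rtraf-ps (chr3:88574859-88579858) 1.94 and 3.49 (-0.77). The last was chr14:21828620-21833619, with 1.89 in 4HT LS and 3.22 in EtOH LS. In all 10 windows the EtOH LS column was the highest of the 8, whereas the 4HT LS column was the lowest in 1. These places rest on multiples, which are higher in a deeper column. By signal, EtOH LS was again the highest in all 10, and 4HT LS was the lowest in 6. Here too the choice by LS difference favours outlying places of the LS columns.

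**Figure D3:**
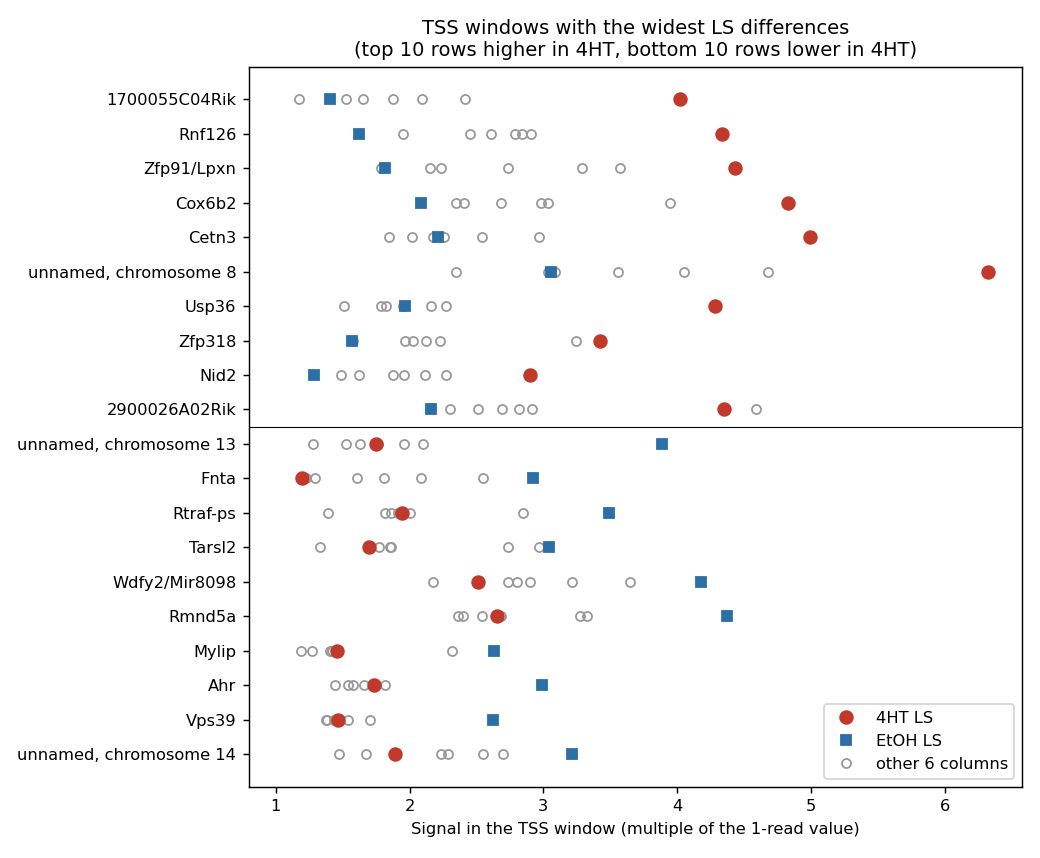
Signal of the 20 TSS windows with the widest LS differences, as a multiple of the 1-read value (horizontal axis), in 4HT LS (red), EtOH LS (blue) and the 6 columns of G1, ES and G2 (open grey). In the top 10 rows 4HT LS lies at 2.90 to 6.32, mostly right of all other columns, and in the bottom 10 rows EtOH LS lies at 2.62 to 4.38, right of all other columns. The rows were chosen by their LS difference, which favours such places.

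These 20 windows each held a tested region, and all 21 such regions differed in the direction of their window, 8 of them by at least 2-fold. Regions and windows share reads, so this is no second measurement. In the other fractions the 20 windows had the LS direction in 31 of 60 cases (51.7%).

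The accessible regions with the widest differences were narrow and mostly away from promoters. More signal in 4HT LS was led by chr9:82348485-82348688, at 7.76 times the 1-read value in 4HT LS and 1 times in EtOH LS, a log2 difference of 1.94 (SE 0.47, limma adjusted p = 0.856). A region 4850 bp from Ulk1 (chr5:110814803-110815059), a kinase that starts autophagy, had 9.05 in 4HT LS and 1.41 in EtOH LS (1.84). At the start of Ppp1r11 (chr17:36951479-36952048), an inhibitor of protein phosphatase 1, the values were 7.81 and 1.33 (1.71). Of the 10 regions of this direction, 7 stood at a single read in EtOH LS and 2 were proximal. The second proximal one lay at the start shared by Ddx19b and Aars (chr8:111031692-111031870), an RNA helicase and the alanyl-tRNA synthetase, with 6.71 in 4HT LS and 1.16 in EtOH LS. The others were a region in Rab6b (chr9:103155428-103155599) with 6.59 and 1, a region 40553 bp from Rpl19 (chr11:98067414-98067541) with 6.16 and 1, and 4 regions with 5.93 to 6.56 in 4HT LS and 1 in EtOH LS (chr5:147745413-147745566, chr11:87966233-87966648 at 51437 bp from Olfr464, chr3:6100865-6101202 and chr5:18793987-18794103).

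Less signal in 4HT LS was led by a region in Cldn34d, a claudin gene (chrX:76598940-76599147), at 1.10 times the 1-read value in 4HT LS and 8.18 times in EtOH LS. Its log2 difference was -2.39 (SE 0.38, limma adjusted p = 0.0876), with 0.34 in G1, -0.59 in ES and 0.00 in G2. A region inside Lncenc1, a long non-coding RNA gene of naive embryonic stem cells (chr13:97494843-97495293), had 1.27 in 4HT LS and 6.56 in EtOH LS, a log2 difference of -1.99 (SE 0.47, limma adjusted p = 0.856). In Cldn34d the other 6 columns stood at 3.46 to 8.64, so 4HT LS alone was outside their range, although by signal EtOH LS was the highest of the 8 (1.002). In Lncenc1 they stood at 1.07 to 3.19, so EtOH LS stood apart. A region 20211 bp from Cyp2b23 (chr7:26706538-26706745) had 1.48 and 6.30, a region 11396 bp from C1rl (chr6:124481622-124481813) 1.79 and 6.54, and a region 25090 bp from Actr2 (chr11:20137986-20138097) 1 and 4.03. A region 22704 bp from Zfp985 (chr4:147530510-147530637) had 1.01 in 4HT LS and 4.12 in EtOH LS. The other 4 (chr11:121951745-121952011, chr19:18710933-18711202, chr4:141564728-141564945 and chr1:90519082-90519878) had 1 to 1.71 in 4HT LS and 4.66 to 6.01 in EtOH LS. Over the 20 regions, the other fractions had the LS direction in 27 of 60 cases (45.0%).

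Gene lists were compared with all windows to see whether groups of related genes moved together. The 20 lists had 347 distinct genes with a tested window, 0 of which limma called. By the centred log2 difference, 0 were 1.5-fold or more higher in 4HT LS, and 2, H2bc4 and H2ac6, were 1.5-fold or more lower. The 0.1 added to the signal understates the folds of weak rows. Members outside these counts can thus still differ 1.5-fold or more in plain signal. The background shares are those given above, 0.183% higher and 0.339% lower. List medians of the log2 difference lay between -0.06 for the forkhead family and 0.14 for the neural crest, against 0.00 for all windows, and 12 of 20 were above 0. In the other fractions the medians of the same lists lay between -0.11 and 0.11, and in 13 of 20 lists the LS median was inside the range of the 3 others. Without centring the 20 medians lay between -0.23 and -0.03, all below 0 like that of all windows, so their signs hold only relative to all windows.

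**Figure D4:**
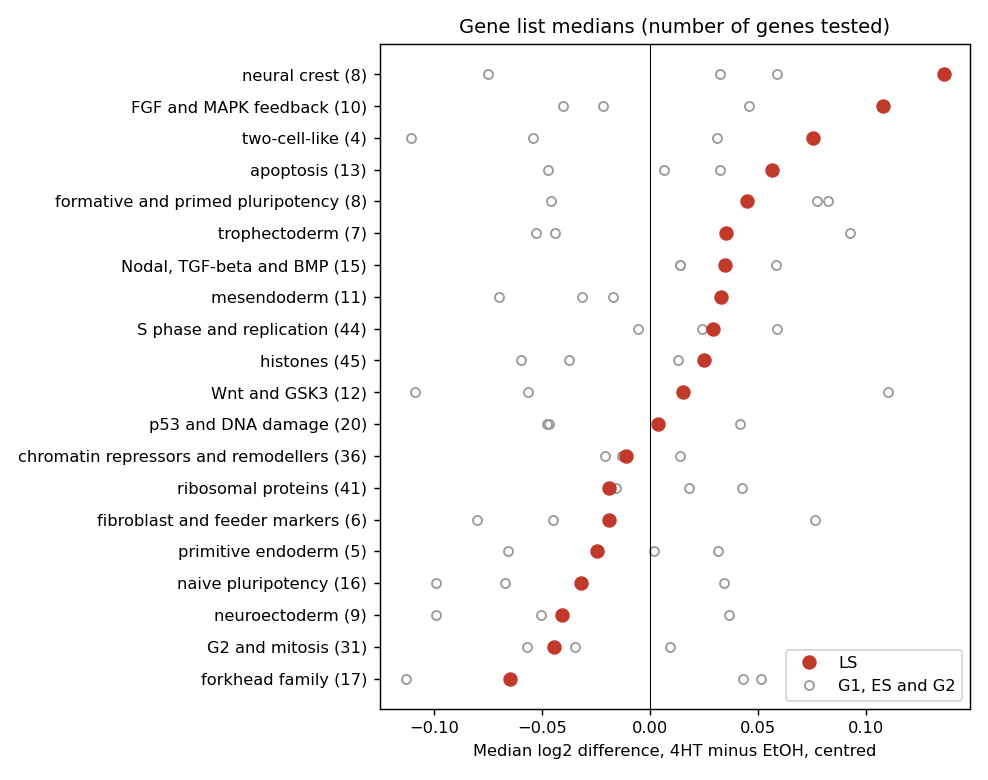
Median centred log2 difference, 4HT minus EtOH, of the TSS windows of each gene list in LS (red) and in G1, ES and G2 (open grey), with the number of genes tested in brackets. LS medians run from -0.06 to 0.14, and those of the other fractions from -0.11 to 0.11.

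Naive pluripotency genes were split evenly, with 8 of 16 above 0, against 50.1% of all windows tested, and a median of -0.03. Pou5f1, which codes for OCT4, had 3.09 times the 1-read value in 4HT LS and 3.33 times in EtOH LS, a log2 difference of -0.23 (SE 0.22). Nanog had 1.80 and 1.48 (0.07), Zfp42 had 3.53 and 2.98 (0.03), Klf2 had 3.52 and 3.04 (0.01), and Sox2 had 1.46 and 1.58 (-0.18). All of these differences were within about 1 SE. The widest of the list were Dppa5a at -0.29 and Lifr, the receptor of the LIF cytokine, at -0.24, both below 0 in every fraction. Dppa5a had 1.83 in 4HT LS and 2.15 in EtOH LS, and Lifr 1.53 and 1.75.

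Formative and primed genes had 5 of 8 above 0 and a median of 0.04. Fgf15, a fibroblast growth factor of the early embryo, had 2.34 times the 1-read value in 4HT LS and 1.09 times in EtOH LS, with a log2 difference of 0.58 (SE 0.15, limma adjusted p = 0.301). In the other fractions the Fgf15 difference was -0.01, 0.02 and -0.20. Lef1, a nuclear partner of beta-catenin, had 1.02 in 4HT LS and 1.37 in EtOH LS (-0.31). Of 17 forkhead genes 5 were above 0, with a median of -0.06. The widest of these were Foxn2, at 1.53 in 4HT LS and 2.08 in EtOH LS (-0.41), and Foxf2, at 1.39 and 1.74 (-0.30).

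Since LS is a fraction sorted by DNA content, cell cycle genes were listed too. Of 44 genes of S phase and replication, 23 were above 0 and the median was 0.03. Clspn, the adaptor of the replication checkpoint, had 2.30 times the 1-read value in 4HT LS and 1.09 times in EtOH LS (0.56), and the region at its start (chr4:126556651-126557400) had 3.87 and 1. Mcm2, a subunit of the replicative helicase, went the other way with 1.88 in 4HT LS and 2.66 in EtOH LS (-0.49). Of 31 genes of G2 and mitosis, 14 were above 0 and the median was -0.04. Birc5, the survivin of the chromosomal passenger complex, had 2.67 in 4HT LS and 1.41 in EtOH LS (0.49), and the mitotic kinase gene Aurka 2.36 and 1.25 (0.47). No limma adjusted p of these 4 genes was under 0.413.

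Of 45 histone genes 29 were above 0, with a median of 0.02. On chromosome 13, the 35 genes tested other than H2bc4 and H2ac6 had log2 differences between -0.30 and 0.29, and the 7 on chromosome 3 between 0.02 and 0.16. Chromatin repressors and remodellers had 17 of 36 above 0 and a median of -0.01. Within them Suv39h1, a histone H3 lysine 9 methyltransferase, had 1.91 times the 1-read value in 4HT LS and 2.89 times in EtOH LS (-0.57, limma adjusted p = 0.591), whereas the difference was above 0 in the other fractions, at 0.14, 0.27 and 0.38. Smarcb1, a BAF complex subunit, had 1.80 and 1.16 (0.29). Ribosomal protein genes had 19 of 41 above 0, and Rpl14 among them had a log2 difference of 0.37.

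Signalling genes differed little. FGF and MAPK feedback genes had 7 of 10 above 0 and a median of 0.11, led by Dusp5, a phosphatase of ERK, with 1.75 times the 1-read value in 4HT LS and 1 times in EtOH LS (0.38), and by Ier2 (0.35). Nodal, TGF-beta and BMP genes had 9 of 15 above 0, led by Smad7 (0.27) and Gdf3 (0.24), which were above 0 in every fraction. Wnt and GSK3 genes had 7 of 12 above 0, led by Gsk3a (0.37) and Lef1. The p53 and DNA damage list had 10 of 20 above 0, led by Zmat3 (-0.42) and Trp53inp1 (0.33), and the apoptosis list 10 of 13, led by Bcl2l1 (0.34) and Bcl2l11 (0.22).

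Among the lineage lists the neural crest genes had the highest median of all 20 lists in LS, 0.14, with 6 of 8 above 0. They were led by Snai1, with 1.95 times the 1-read value in 4HT LS and 1.33 times in EtOH LS (0.24), and Msx1 (-0.22). Neuroectoderm had 4 of 9 above 0, led by Pou3f2 (-0.21) and Tubb3 (-0.19). Mesendoderm had 6 of 11, led by Mesp1 (0.28) and Tbx6 (-0.27). Primitive endoderm had 2 of 5, led by the neighbours Col4a1 (-0.27) and Col4a2 (-0.26), which share a promoter. Trophectoderm had 4 of 7, led by Gata2 (0.16) and Eomes (0.10), the 2-cell-like list 3 of 4, led by Arg2 (0.19) and Tmem92 (-0.11), and fibroblast markers 2 of 6, led by Mmp2 (-0.26) and Tagln (-0.19).

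Regions within 100000 bp of list genes gave single large values, with at most 2 regions of a list past 2-fold in either direction. Of 38 tested regions near naive pluripotency genes, 19 were above 0, against 49.5% of all regions tested, 1 was at least 2-fold higher and 2 were at least 2-fold lower in 4HT LS, against 1.79% and 2.19% of all regions tested. The widest lay 18638 bp from the start of Sox2, inside Sox2ot (chr3:34668478-34668788), with 1.04 times the 1-read value in 4HT LS and 4.13 times in EtOH LS, a log2 difference of -1.55. In the other fractions this difference was -0.15, 0.62 and 0.04. A region in Lifr (chr15:7132772-7133050) had 1.06 in 4HT LS and 3.84 in EtOH LS (-1.44). Near forkhead genes, a region 47329 bp from Foxj2 (chr6:122772712-122772998) had 5.29 and 1 (1.47), and one at the start of Foxo3 (chr10:42276630-42277008) 1 and 2.62 (-1.10). At the start of Fen1, a flap nuclease of replication (chr19:10203674-10204327), the values were 1 in 4HT LS and 3.002 in EtOH LS (-1.22). Each of these pairs has a column at or near a single read, where the value cannot go lower.

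The spread of the LS differences varied with level, width and position. Over regions the SD was 0.481 at a mean level of 2 to 2.5, 0.496 at 2.5 to 3 and 0.335 at 6 or more. Over windows it went the other way, from 0.162 at 1.3 to 1.5 to 0.266 at 5 or more. Of the narrowest regions 8.53% were past 2-fold, and of the widest 0.900%. By position, 2.01% of the proximal regions, 5.29% of those in gene bodies and 6.16% of those between genes were past 2-fold. Of the 197 regions with at least 2-fold more signal in 4HT LS, 58 (29.4%) stood at a single read in EtOH LS. Of the 241 with less signal, 39 (16.2%) stood at a single read in 4HT LS, the deeper column. On chromosome X the median difference of 127 regions was -0.11 in LS, 0.20 in G1, 0.02 in ES and 0.05 in G2. For the 231 windows of chromosome X it was -0.01 in LS.

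**Figure D5:**
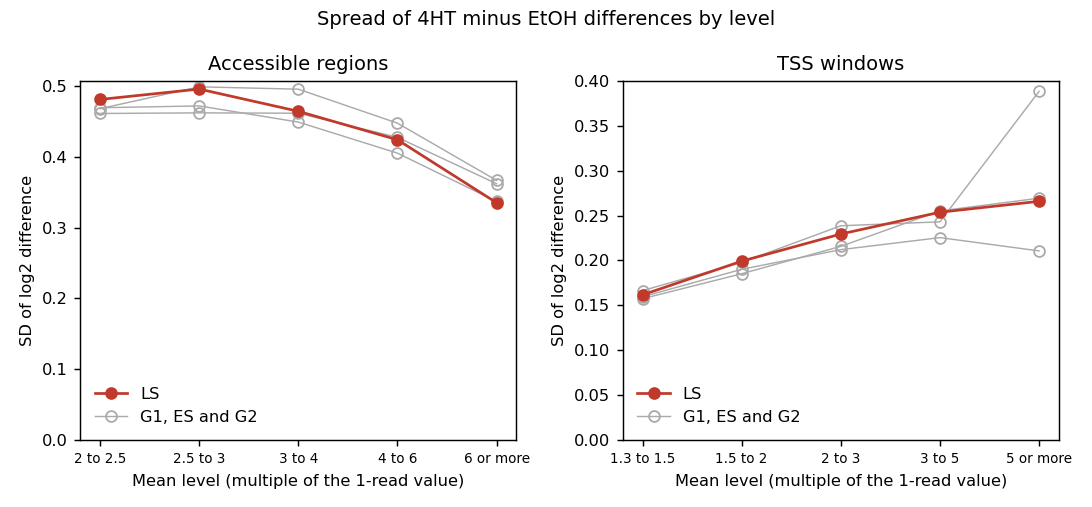
SD of the log2 difference, 4HT minus EtOH, by mean level as a multiple of the 1-read value, for regions (left) and TSS windows (right), in LS (red) and in G1, ES and G2 (grey). The LS line runs with the others, from 0.481 to 0.335 over regions and from 0.162 to 0.266 over windows.

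Forkhead motifs were counted in the promoters of windows past 1.5-fold, on both strands. Overlapping windows were counted separately, so some genes, such as H2ac6 and Lins1, entered more than once. The motif TGTTTAC, or GTAAACA on the other strand, was in the promoters of 0 of 16 windows with more signal in 4HT LS and of 2 of 36 with less (5.56%). These 2 were Rmnd5a, shown above, and Yod1, which codes for a deubiquitinase and had 1.85 times the 1-read value in 4HT LS and 2.89 times in EtOH LS. Yod1 was named after its value was seen. Among all 9882 tested windows with a promoter sequence 238 held the motif (2.41%), as did 3.65% of all 32851 promoters of the same 300 bases. The core TGTTT or AAACA, which the longer motif contains, was in the promoters of 4 of 16 windows with more signal (25%) and 14 of 36 with less (38.9%). Of the tested windows 35.6% held it, and of all promoters 50.5%. The median log2 difference was 0.00 for tested windows with the longer motif and 0.00 for those without.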

How the data were processed

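Embryonic stem cells were assayed by ATAC-seq in 8 groups of 2 libraries. The authors deposited 2 tables of coverage signal, in CPM averaged over covered bases as the values show, with 1 pooled column per group and no replicate number. The submitters' processing notes name mm10 as build and list featureCounts and DESeq2 without a version or role. The aligner and the coverage program are not given in the sources used here.

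Each column of deposited signal was divided by its smallest value, taken as 1 read, and an empty value as no read. For differences, log2(signal + 0.1) was centred by cyclic loess (limma 3.58.1, R 4.3.3). The pseudocount understates the folds of weak rows. Rows read in all 8 columns were tested if their multiples averaged 2 or more (regions) or 1.3 or more (windows). This filter leaves out rows that lost all reads. The limma model had terms for fraction, treatment and the treatment effect in LS, 2 residual degrees of freedom from G1, ES and G2, an intensity trend, robust moderation and Benjamini-Hochberg adjustment at 0.05. P-values thus rest on the spread among fractions, not among cultures, and every value is a pooled value without SD. The script was tested on simulated data.

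Windows took names from RefSeq (GRCm38.p6) if an annotated start was at most 500 bp from its expected place, 150 bp off the window centre. These names cover 18039 of 21900 protein-coding genes. Chromosome 18 was left out of the location classes and of the regions near list genes. Named were Foxd3, the 10 widest differences in each direction among rows with an LS mean of at least 2 times the 1-read value, the 5 strongest rows read in 1 LS column, and the 2 widest members of each list. Predicted symbols were named by position, and 1 list member is not reported here. Other genes, and regions near list genes, were chosen after their values were seen. Members and lists were chosen with earlier results of these data known.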

Additional observations from a re-analysis of the deposited data

How the results depend on the processing

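No paired analysis was possible because the columns carry no replicate numbers, and leaving out single replicates was not possible because the columns are pooled. Weak rows cannot fall below 1 read, and the depths of 11.1 and 8.17 M reads limit what could be detected. The count of regions called by limma was 0 with a pseudocount of 0.5, without centring, with a median shift, without a minimum and without G1 or ES. It was 1 with the higher minimum, with a correction for overlapping reads that the average over covered bases hides, and without G2, each time the region in Cldn34d. Against the other fractions it was 2 without G2. Limma called 3 windows with a pseudocount of 0.5, the histone window and those of H2bc4 and H2ac6. It called 9 without G1, 7 without ES and 6 without G2, where 1 residual degree of freedom is left. The histone windows and Fnta were among them each time. So were chr9:64039116-64044115, with more signal in 4HT LS (0.93), and Zfp979 (-0.78), which was far from called in the main fit. Without ES the called windows include the Gm10222 window at a log2 difference of -0.03 with an SE of 0.000957. Against the other fractions it called 9, 4 and 3 windows. The cause of these shifts was not tested. Leaving out a fraction changes both the degrees of freedom and the pairs that set the spread.

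Regions past 2-fold numbered 4 with a pseudocount of 0.5, 808 without a minimum, 99 with the higher minimum, where fewer regions were tested, and 1390 with the correction for hidden reads. Windows past 1.5-fold numbered 0, 278 (not centred), 35 (higher minimum) and 1674 (hidden reads). Regions read in 1 LS column numbered 7683 at 1.5 or more times the 1-read value, 2451 at 2 or more, and 22002 where at least 4 other columns had a read. For windows the counts were 24, 3 and 363. The setting at 2 or more times, and regions past 2-fold without chromosomes X and Y, were chosen after seeing the data.

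Without centring, the list medians of the log2 difference were -0.21 (naive pluripotency), -0.12 (formative and primed), -0.23 (forkhead family), -0.15 (S phase), -0.21 (G2 and mitosis), -0.14 (histones), -0.18 (chromatin repressors), -0.0611 (FGF and MAPK), -0.13 (Nodal), -0.15 (Wnt), -0.17 (p53), -0.11 (apoptosis), -0.0310 (neural crest), -0.21 (neuroectoderm), -0.14 (mesendoderm), -0.19 (primitive endoderm), -0.13 (trophectoderm), -0.10 (2-cell-like), -0.18 (ribosomal proteins) and -0.19 (fibroblast markers), where all windows had -0.17. Without a minimum, the medians were -0.0795 for formative and primed genes, -0.00959 for mesendoderm and -0.0217 for the 2-cell-like list. With a pseudocount of 0.5 they were 0.0401 for FGF and MAPK genes and 0.0517 for the neural crest. All 20 named windows and all 20 named regions that a setting tested kept their sign under the pseudocount, centring, minimum and hidden-read settings. They were chosen by their LS difference, and each setting uses the same columns, so the kept sign is no separate result. The sizes changed. The log2 differences of the named regions ran from -1.27 to 1.02 with a pseudocount of 0.5 and from -3.17 to 3.03 with the correction for hidden reads.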

Other observations

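The strongest signal of both LS columns came from 1 locus on chromosome 1 (chr1:24613019-24613216), with a signal of 803 in 4HT LS and 911 in EtOH LS. The next region, beside it (chr1:24612660-24612847), had 24.5 in 4HT LS and 25.4 in EtOH LS. A region on chromosome 8 (chr8:19784561-19784750) had 6.07 in 4HT LS and 6.11 in EtOH LS. A region on chromosome X, 35533 bp from Pak3 (chrX:143482967-143483149), had 3.13 in 4HT LS and 4.92 in EtOH LS, the widest difference of the 8 strongest regions. At the promoter of Ubxn6, a cofactor of the p97 ATPase (chr17:56078924-56079742), the signal was 2.48 in 4HT LS and 2.11 in EtOH LS.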
